A study of Homo sapiens with 10 samples.

Results

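The STAT genes encode the signal transducers and activators of transcription, and 6 of them are described here: STAT2, STAT3, STAT4, STAT5A, STAT5B and STAT6. They were chosen by gene name and not by a cut on their values, though earlier results of these data were known. Each is listed once among the 20502 named genes of an interferon experiment and once among the 22609 genes of a knockdown experiment. All libraries came from esophageal squamous cell carcinoma lines, which are cultured tumor cells of human origin. The interferon experiment used KYSE30, KYSE180 and KYSE450, with 1 untreated library per line, for which the protocol names PBS, and 1 library per line from cells given interferon-beta (IFN-β) at 1000 IU/ml for 72 h. The knockdown experiment used KYSE30 and KYSE180, with 1 library per line labelled vector control and 1 labelled IRF1-AS knockdown, made by infection with lentivirus packaged in HEK293T cells, a human embryonic kidney line. IRF1-AS is a long non-coding RNA transcribed antisense to the interferon regulatory gene IRF1. The sources used here do not give the number of hairpins or say whether infected cells were cloned. The cell line is the replicate in both experiments, so an SD measures the spread between lines and not between cultures of a line. A test, also one between lines, sets a difference against how far the treatment difference varies between lines.

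STAT proteins wait in the cytoplasm until a cytokine receptor and its Janus kinases phosphorylate them, after which they pair, enter the nucleus and bind DNA. Type I interferons such as IFN-β act through the receptor chains IFNAR1 and IFNAR2 and the kinases JAK1 and TYK2. In that pathway STAT2 and IRF9 work in a complex called ISGF3, which binds the interferon-stimulated response element in front of antiviral genes. STAT3 is the main transducer of IL-6-type cytokines, STAT4 that of IL-12 in lymphocytes, STAT5A and STAT5B are close relatives that serve growth hormone, prolactin and IL-2-type cytokines, and STAT6 serves IL-4 and IL-13. These proteins are regulated mostly by phosphorylation, which RNA levels do not show.

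The complex that STAT2 forms reads a short DNA word, so the word is shown here at genes it is known to act on. The 10 letters of 1 match per gene to the element's core (GAAANNGAAA, either strand) are in capitals. Each of these genes holds further matches that are not marked, and that of ISG15, at position −107, overlaps the one shown. The sequences are those of RefSeq on GRCh38.p14, on the strand of the gene. Positions are relative to a transcription start, the first along the chromosome where a gene has several.
ISG15, chr1:1013384-1013393, position −113: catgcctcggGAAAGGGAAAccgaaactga
IFIT1, chr10:89392507-89392516, position −116: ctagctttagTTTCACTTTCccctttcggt
IFIT3, chr10:89327875-89327884, position −122: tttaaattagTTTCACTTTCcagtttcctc
IFI27, chr14:94110628-94110637, position −108: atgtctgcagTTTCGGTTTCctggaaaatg
IFI6, chr1:27672339-27672348, position −156: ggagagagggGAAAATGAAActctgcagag
In windows from 250 bases before to 50 bases after a start, the core was found at 11 of the 14 listed STAT2-IRF9 target genes that had a promoter entry, of 20 on the list. Among all 27305 genes with an entry, 4.38% hold it. None of the 6 STAT genes holds it in this window, which says only that these letters are not there. The part of the STAT2 window that lies outside every annotated STAT2 transcript is chr12:56360156-56360357, minus strand, and is printed because STAT2 was the member with the largest difference after IFN-β, although the core is not in it.
STAT2 upstream: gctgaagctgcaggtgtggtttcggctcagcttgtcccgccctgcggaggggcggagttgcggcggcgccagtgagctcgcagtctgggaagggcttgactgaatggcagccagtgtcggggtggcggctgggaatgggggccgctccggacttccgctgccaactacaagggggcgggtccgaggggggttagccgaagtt
The palindromic word that STAT pairs bind, TTCNNNGAA, was found in the window of none of the 6 genes and of 9.38% of all genes. Its form with a wider gap, TTCNNNNGAA, was found at 1 of the 6, STAT5A, and at 7.8% of all genes. The STAT5A match lies at position −229, chr17:42287210-42287219, with the 10 letters in capitals. It is in the most upstream of 3 STAT5A windows, whose start lies before the GENCODE start given below, and the other windows hold no match.
STAT5A: ttttttttttTTCCTCTGAAgttaaaagaa

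The 6 genes lie in 3 places of the GRCh38 genome, with positions from GENCODE release 29. STAT2 (chr12:56341597-56360155) and STAT6 (chr12:57095408-57132139) are both on the minus strand of chromosome 12, with 735252 bases between them. STAT5B (chr17:42199168-42276707, minus strand), STAT5A (chr17:42287547-42311943, plus strand) and STAT3 (chr17:42313324-42388568, minus strand) are direct neighbours on chromosome 17. The gap between STAT5B and STAT5A is 10839 bases, and that between STAT5A and STAT3 is 1380 bases. STAT4 (chr2:191029576-191151596, minus strand) stands apart on chromosome 2. STAT5A and STAT5B arose as near copies, and 507 stretches of 50 bases occur in annotated transcripts of both. These are 8.61% of the distinct stretches of STAT5A and 7.81% of those of STAT5B, so how reads were divided between the pair is uncertain. STAT6 overlaps NAB2 by 69 bases and LRP1 by 3647 bases on the opposite strand, and the sources used here do not give the strand setting of the counting.

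The deposited values are FPKM, fragment counts divided by transcript length and library size, which can be set side by side between genes within a library. In the untreated lines of the interferon experiment STAT3, STAT6 and STAT2 were the abundant members, STAT5B followed, and STAT4 and STAT5A were low. STAT3 was 19.7 FPKM in KYSE30, 27.8 in KYSE180 and 15.6 in KYSE450. STAT6 was 22.6, 23.6 and 23.2 FPKM in the same order, with an untreated mean of 23.2 ± 0.488 FPKM (SD, n = 3). As deposited, this was the smallest SD of the 4 abundant members. After the scaling described below the values were 23.9, 21 and 28.4, so the small SD belongs to the deposited values. STAT2 ranked 3 among the members in each untreated line. Its untreated values are given with the IFN-β comparison. STAT5B ranked 4, at 8.82, 21.7 and 8.41 FPKM, with KYSE180 well above both other lines.

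STAT4, the lymphocyte member, was 0.87 FPKM in KYSE30, 1.75 in KYSE180 and 0.17 in KYSE450 before treatment. STAT5A was 0.09, 1.79 and 0.19 FPKM. These 2 genes took ranks 5 and 6 in each of the 10 libraries. Neither passed the filter of the interferon experiment, 1 FPKM in at least 3 of 6 libraries, so 4 of the 6 members were tested there. In the knockdown experiment, where the filter was 1 FPKM in at least 2 of 4 libraries, STAT5A passed as well and 5 of 6 were tested.

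In the vector control libraries STAT3 was the most abundant member, at 33.9 FPKM in KYSE30 and 42.8 in KYSE180, and it ranked first in all 4 libraries of that experiment. STAT6 followed at 23.2 and 28.4 FPKM, STAT5B at 12.1 and 19.4, and STAT2 at 9.83 and 8.10. STAT5A was 0.636 FPKM in KYSE30 and 3.18 in KYSE180, and STAT4 was 0.0877 and 0.643. The experiments were normalized separately, so levels are not compared across them. Within each one, STAT5A and STAT5B were higher in KYSE180 than in KYSE30.

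**Figure D1:**
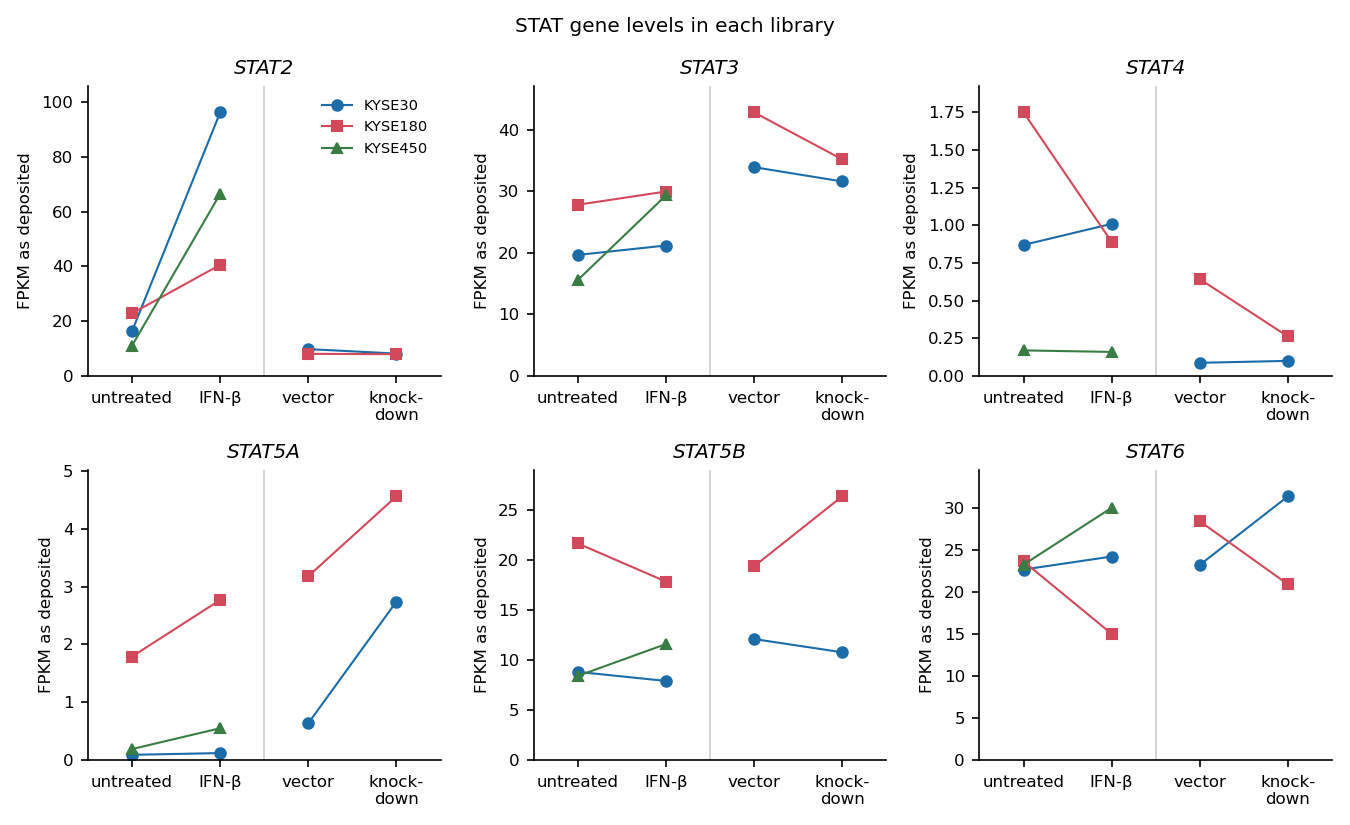
Deposited FPKM (linear axis, a separate scale for each gene) of the 6 STAT genes in each library, with 1 point per library and a line joining the 2 libraries of a cell line. The vertical line parts the interferon experiment from the knockdown experiment, which were normalized separately, and the STAT2 points of the treated cells lie between 40.6 and 96.3 FPKM, above the untreated ones at 11.1 to 22.9.

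The labelled cell type was checked against marker genes. Of 12 markers of squamous epithelium, 11 or 12 reached 1 FPKM in each library, and their summed FPKM ranged from 371 to 8680 in the interferon experiment and from 1110 to 9980 in the knockdown experiment, lowest in KYSE30 both times. None of 12 lymphocyte and NK cell markers reached 1 FPKM, and 6 to 9 of them were listed at 0 in a library. Their sums were 0.37 to 1.09 FPKM in the interferon experiment and 0.134 to 0.872 FPKM in the knockdown experiment. The sums of 7 myeloid markers were 0.39 to 1.04 and 0.287 to 1.68 FPKM, and those of 10 fibroblast and endothelium markers were 0.7 to 2.64 and 1.81 to 6.36 FPKM. In bulk libraries such as these, fewer cells that express a gene and less RNA per cell cannot be told apart. Read counts are not among the deposited values, so the depth is unknown, and the summed FPKM of the named genes lay between 988427 and 993533 in the interferon experiment. In KYSE450 the median named gene differed by 0.43 on the log2 scale between the treated and the untreated library as deposited, against −0.01 in KYSE30 and −0.03 in KYSE180. Values were therefore divided by a median-of-ratios size factor per library before testing. A scaled value below is FPKM after that division, and a log2 ratio or fold change is of scaled FPKM + 1, which understates changes of low genes.

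The first comparison asked how the STAT genes stood after 72 h of IFN-β. STAT2 was the member with the largest difference, and it was higher in all 3 lines. It was 16.4 FPKM in untreated and 96.3 in treated KYSE30 cells, 22.9 and 40.6 in KYSE180, and 11.1 and 66.5 in KYSE450. The lowest treated library was above the highest untreated one, as deposited and after scaling, so the groups did not overlap. In this direction that held for 1.87% of all tested genes after scaling and 2.89% as deposited. The mean was 16.8 ± 5.9 FPKM untreated and 67.8 ± 27.9 FPKM treated (SD, n = 3 each).

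The lines differed in the size of the STAT2 response. After scaling, treated cells held 5.88 times the untreated level in KYSE30 and 4.18 times in KYSE450, but 1.84 times in KYSE180, the line with the highest untreated value. The log2 ratios were 2.49, 1.99 and 0.85. STAT2 thus passed a 2-fold difference in KYSE30, as 1.47% of tested genes did upward there, and in KYSE450, as 1.96% did, but not in KYSE180, where 2.06% did. With 1 library per arm in each line, this difference between lines was not tested.

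Across the lines, limma with the cell line as a block gave STAT2 a log2 fold change of 1.77 ± 0.32 (SE), with a 95% interval of 0.95 to 2.60. This lies at the 99.3th percentile of the fold changes of all genes tested. The unadjusted p was 0.00251 and the Benjamini-Hochberg adjusted p over 12429 genes was 0.204, so STAT2 did not pass the threshold of 0.05. None of the 4 tested members did, against 0.41% of all genes, 51 genes that were all higher. Over the alternatives the fold change ran from 1.41 to 2.24 and limma's adjusted p from 1.26e-14 to 0.832. On the deposited values without scaling, limma called STAT2 higher by 1.92 ± 0.23 (adjusted p 1.26e-14). That fit called 193 genes higher and 44 lower, or 1.91% of all, which include all 51, but it used a spread shared across most genes in place of STAT2's own. Without the KYSE180 pair, STAT2 was called at 2.24 (limma's adjusted p 0.0101).

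STAT3 differed little after IFN-β in 2 of the lines. It was 19.7 FPKM untreated and 21.2 treated in KYSE30, 27.8 and 30.0 in KYSE180, and 15.6 and 29.3 in KYSE450. The treated value was the higher one in each line, but the groups overlapped. It was the higher one in each line for 16.9% of tested genes after scaling and 23.4% as deposited. In KYSE450 the deposited log2 ratio of 0.87 became 0.38 after scaling. The log2 fold change was 0.21 ± 0.12 (SE), interval −0.08 to 0.50, and limma's adjusted p was 0.602.

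STAT5B and STAT6 had fold changes below 0 after scaling, neither past the threshold. STAT5B was 8.82 FPKM untreated and 7.91 treated in KYSE30, 21.7 and 17.8 in KYSE180, and 8.41 and 11.6 in KYSE450. Its groups overlapped, and the lines differed from each other by more than treated and untreated cells did. The log2 fold change of STAT5B was −0.14 ± 0.12 (SE), interval −0.43 to 0.15, limma's adjusted p 0.714. On deposited values its sign turned, to 0.005, because the KYSE450 ratio went from −0.05 to 0.42.

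STAT6 was 22.6 FPKM untreated and 24.2 treated in KYSE30, 23.6 and 15.0 in KYSE180, and 23.2 and 30.0 in KYSE450. As deposited, the treated mean of 23.1 ± 7.56 FPKM (SD, n = 3) was near the untreated mean, and the treated lines were spread from 15.0 to 30.0 FPKM. After scaling, the untreated lines stood at 21 to 28.4 and the treated ones at 13.8 to 25.6. The fold change of STAT6 was −0.21 ± 0.16 (SE), interval −0.58 to 0.17, limma's adjusted p 0.664. After scaling, the KYSE180 ratio of −0.57 was the furthest from 0 of the 3, and without that line the fold change was −0.02, against −0.37 without KYSE30. On deposited values it was −0.06, with the KYSE450 ratio at 0.36 in place of −0.14.

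The low members stayed low after IFN-β. STAT4 was 0.87 FPKM untreated and 1.01 treated in KYSE30, 1.75 and 0.89 in KYSE180, and 0.17 and 0.16 in KYSE450. STAT5A was 0.09 and 0.12 FPKM in KYSE30, 1.79 and 2.77 in KYSE180, and 0.19 and 0.55 in KYSE450. The treated value of STAT5A was higher in each line, but the groups overlapped, with both KYSE180 libraries above the other 4. With no filter on low values, limma gave STAT4 −0.15 (adjusted p 0.799) and STAT5A 0.25 (adjusted p 0.773).

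With STAT2 at 40.6 to 96.3 FPKM, it was the most abundant of the 6 genes in each of the 3 treated libraries. It had ranked 3 in each of the untreated ones. STAT3, STAT6 and STAT5B took ranks 2 to 4 in the treated cells, in an order that differed between lines.

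**Figure D2:**
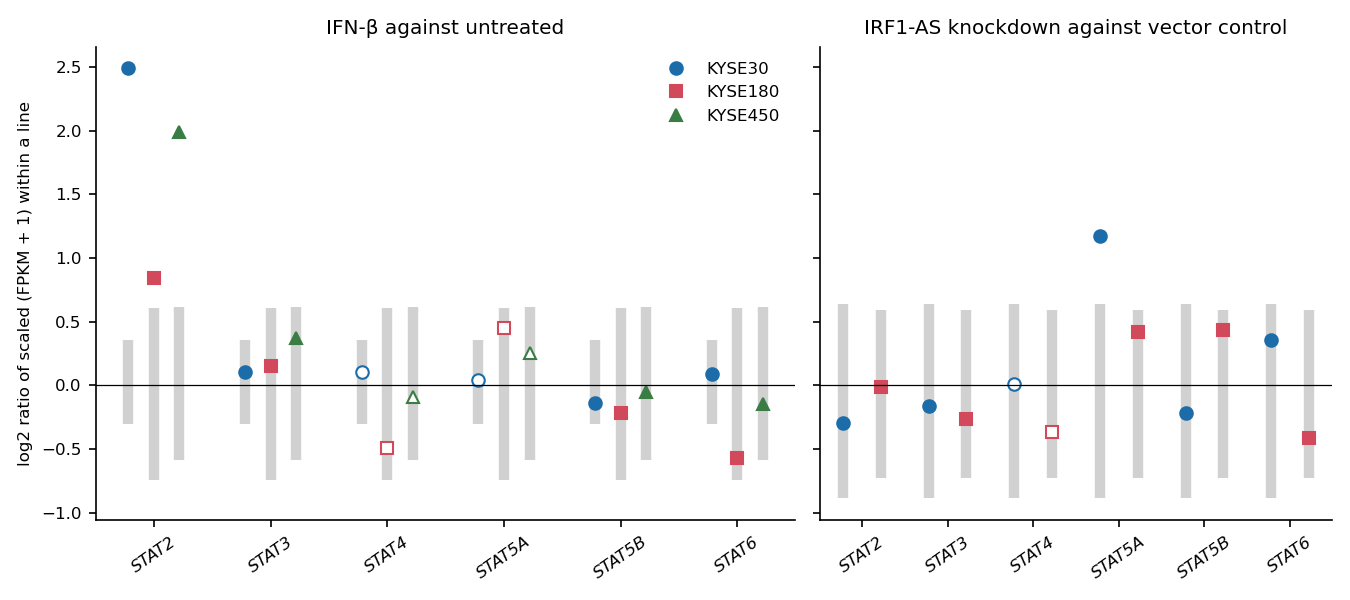
Log2 ratio of scaled FPKM + 1 within each cell line (points; filled where the gene passed the filter, open where it did not) for IFN-β against untreated cells and for the knockdown against vector control. Gray bars span the 5th to the 95th percentile of all named genes in that line, and STAT2 lies above the bar in all 3 lines given IFN-β, at 2.49, 0.85 and 1.99.

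The genes that act with the STAT proteins were taken as lists by role. Of 29 cytokine receptor chains and Janus kinases, 17 passed the filter and none was called by limma, with a median log2 fold change of −0.06 against −0.01 for all genes tested. The IFN-β receptor chains were present in each line. IFNAR1 was 8.27 FPKM untreated and 8.83 treated in KYSE30, 7.46 and 5.65 in KYSE180, and 3.70 and 7.62 in KYSE450. IFNAR2 was 1.86 and 1.76 FPKM, 2.27 and 1.76, and 1.62 and 4.26 in the same order. Of the kinases, JAK1 was 53.7 and 51.4 FPKM in KYSE30, 38.8 and 28.6 in KYSE180, and 16.2 and 26.8 in KYSE450. These values of IFNAR1, IFNAR2 and JAK1 are as deposited. The KYSE450 size factors were 0.8191 untreated and 1.1743 treated, so scaling removes part of the rises in that line. TYK2 had a log2 fold change of 0.19 (limma's adjusted p 0.628). The receptor with the smallest p was OSMR, a chain of the oncostatin M receptor, at 0.42 ± 0.16 (SE, limma's adjusted p 0.501). IL12RB1, a chain of the IL-12 receptor that feeds STAT4, was at or below 0.11 FPKM in all 6 libraries.

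Nuclear partners, importins and coactivators numbered 19, all tested, none called, with a median of 0.06. The largest values were those of IRF9, the DNA-binding partner of STAT2, and NMI, a STAT-binding protein. IRF9 was 6.17 FPKM untreated and 34.1 treated in KYSE30, 27.5 and 134 in KYSE180, and 1.53 and 48.8 in KYSE450. Untreated KYSE180 cells thus held the most IRF9 as well as the most STAT2. Its log2 fold change was 2.83 ± 0.35 (SE, limma's adjusted p 0.0758), and that of NMI was 2.40 ± 0.38 (SE, limma's adjusted p 0.167). On deposited values both passed, as 2 of the 19, where 1.91% of all genes did.

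Of 19 inhibitors of the pathway 18 were tested and none was called, with a median of −0.04. USP18, which binds IFNAR2 and dampens interferon signalling, was 3.14 FPKM untreated and 96.9 treated in KYSE30, 9.69 and 44.6 in KYSE180, and 6.86 and 115 in KYSE450. Its log2 fold change was 3.37 ± 0.50 (SE, limma's adjusted p 0.180). SOCS1, an inhibitor of Janus kinases, had 0.89 ± 0.17 (SE, limma's adjusted p 0.171). Both passed on deposited values, as 2 of the 18, where 1.91% of all genes did. As for STAT2, the USP18 ratio was lowest in KYSE180, at a log2 ratio of 2.13 against 4.58 in KYSE30 and 3.40 in KYSE450.

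The 20 listed target genes of STAT2 and IRF9 had the largest median of the lists. Of 19 tested, 9 were called higher, as 0.41% of all genes were, and none lower. On deposited values 13 were called higher, as 1.55% of all genes were. All 19 were higher in each line, as were 16.9% of all genes after scaling, and the median log2 fold change was 4.91. The list was chosen with earlier results known, so its direction is a description. Of 12 squamous markers, 3 were lower in each line, as were 18.8% of all genes, and 1, EPCAM, was higher in each line. KRT5 was at −0.89 (limma's adjusted p 0.0884). It was the 1 marker called on deposited values (−0.73), where 0.354% of all genes were called lower. The markers' part in these values was not tested. IFI27, a mitochondrial interferon-induced protein, was 1.61 FPKM untreated and 659 treated in KYSE30, 1.06 and 819 in KYSE180, and 1.72 and 1080 in KYSE450, a log2 fold change of 8.27 ± 0.15 (SE). ISG15, a ubiquitin-like modifier, was 45.5 and 1690, 14.2 and 809, and 18.4 and 1570 FPKM in the same lines, a log2 fold change of 5.60 ± 0.17 (SE). OAS2, a sensor of double-stranded RNA, rose by 7.01. Also called were IFI6 (7.41), IFIT3 (5.93), IFIT1 (5.42), OASL (3.92), XAF1 (3.75) and IFIT2 (2.98). The 5 genes whose promoter words are printed above are all among the 9. MX1, OAS3, IFI44, IFI44L, RSAD2 and HERC5 also hold the core and are not among them. XAF1, among the 9, has no core in its windows, and OAS2, OASL and IFIT2 had no promoter entry. A link between the core and a call was not tested. In KYSE180, where the STAT2 ratio was the smallest, the log2 ratio of IFI27 was 8.60, against 8.01 and 8.21 in the other lines. That of ISG15 was 5.77, against 5.19 and 5.84. Both genes were named for a small p, which favors like ratios in all lines, so they do not stand for the list. USP18, also on this list, had its lowest ratio in KYSE180, as given above.

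Targets of the other STAT proteins were not called after scaling. Among 20 listed STAT3 targets 17 were tested, with a median of 0.10, and JUNB (0.41), TIMP1 (0.44) and VEGFA (0.39) had the smallest unadjusted p and limma's adjusted p of 0.483 to 0.496. Of 15 STAT5 targets 10 were tested, with a median of 0.05. DUSP6, a phosphatase of MAP kinases, was at 0.37 (limma's adjusted p 0.501) and BCL6, a transcriptional repressor, at −0.23 (limma's adjusted p 0.634). Of 16 STAT6 targets only SOCS1 passed the filter, and of 11 STAT4 targets only FURIN (0.06) and GADD45B (0.06) did. The lists overlap in a few genes, such as SOCS1, USP18 and IRF9, which each stand in 2 of them.

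**Figure D3:**
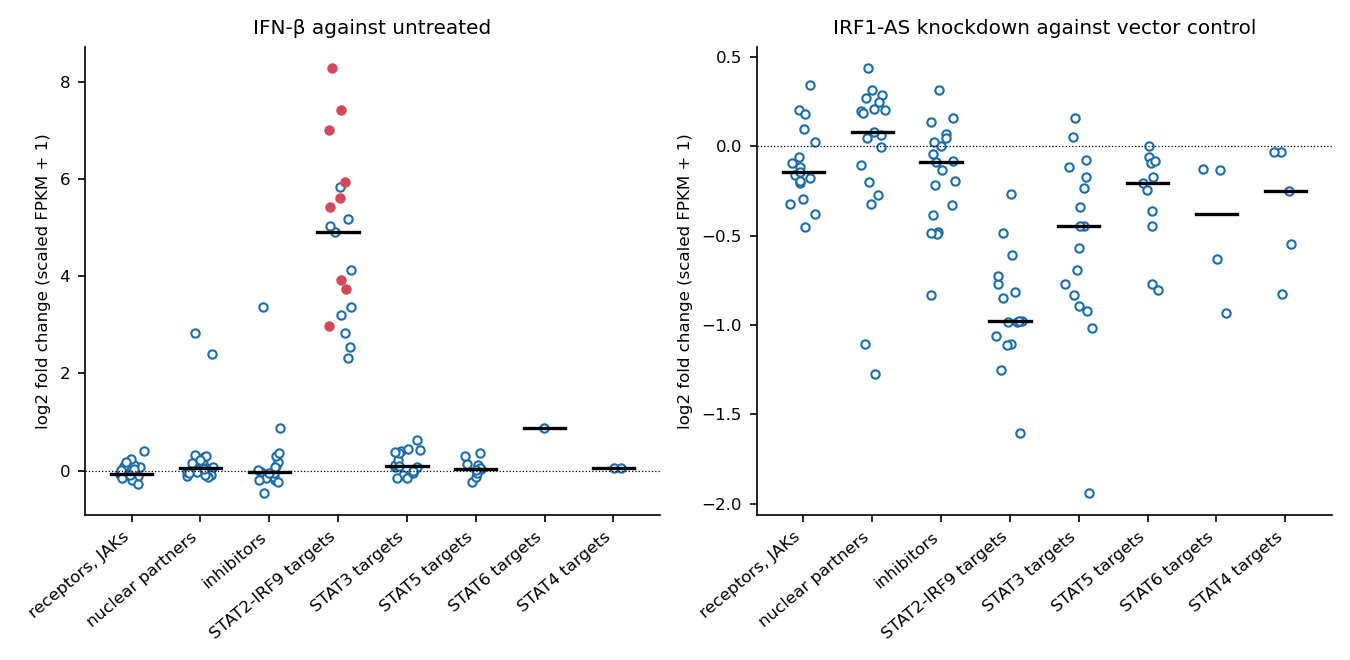
Log2 fold change (limma on scaled FPKM + 1) of each tested gene of the lists named on the horizontal axis, for IFN-β against untreated cells and for the knockdown against vector control, with different vertical scales. Filled points passed an adjusted p of 0.05, bars are list medians, and the STAT2-IRF9 targets have medians of 4.91 and −0.98.

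The next comparison set the cell lines against each other, with the treatment as a term. Each line entered as its control and its treated library, so the p-values do not measure the spread between cultures of a line. Of the 4 members tested, STAT5B was called between KYSE180 and each of the other lines. After scaling it was 0.93 ± 0.15 (SE) higher on the log2 scale in KYSE180 than in KYSE30, interval 0.58 to 1.29, limma's adjusted p 0.00345. It was lower in KYSE450 than in KYSE180 by −0.76 ± 0.15 (SE), interval −1.12 to −0.41, limma's adjusted p 0.00671. Both KYSE180 libraries, at 21.7 and 17.8 FPKM, lay above the other 4, at 7.91 to 11.6.

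The knockdown experiment gave the KYSE180 to KYSE30 contrast in other libraries of the same lines. There STAT5B was 12.1 and 10.8 FPKM in KYSE30 and 19.4 and 26.4 in KYSE180. Its difference of 0.85 ± 0.24 (SE) had limma's adjusted p of 0.0573 after scaling and 0.0456 on deposited values, where 26.7% of all genes passed. STAT5A differed by 0.91 ± 0.29 (SE, limma's adjusted p 0.0803) in the same direction. In the interferon experiment STAT5A was left out by the filter, and with no filter it was higher in KYSE180 than in KYSE30 by 1.43 ± 0.16 (SE, limma's adjusted p 0.00639) and lower in KYSE450 than in KYSE180 by −1.15 ± 0.16 (SE, limma's adjusted p 0.0102).

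Line differences were common among all genes, so the count of STAT genes is read against that. In the interferon experiment 1 of 4 members was called between KYSE180 and KYSE30, where 45.8% of all genes were. Between KYSE450 and KYSE180, 2 of 4 were called, where 49% of all genes were, and between KYSE450 and KYSE30 none of 4 was, where 46.6% were. The knockdown experiment had 0 of 5 called between KYSE180 and KYSE30, where 27.1% of all genes were. These shares do not set the STAT genes above the background. Between KYSE180 and KYSE30 limma called 2728 genes higher and 2960 lower after scaling but 3011 and 1791 on deposited values (38.6% in all). Between KYSE450 and KYSE180 it called 2991 higher and 3095 lower, against 2010 and 3127 on deposited values (41.3% in all).

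The second member called between lines was STAT6, at 0.63 ± 0.19 (SE) higher in KYSE450 than in KYSE180, interval 0.17 to 1.09, limma's adjusted p 0.0333. In the untreated cells of these lines it was 23.2 and 23.6 FPKM as deposited, and the treated cells held 30.0 and 15.0. The scaled values, on which the call rests, were 28.4 and 21 untreated and 25.5 and 13.8 treated. The call was lost on deposited values (0.47, limma's adjusted p 0.195), with upper-quartile scaling (0.54, adjusted p 0.066) and with no filter (0.68, adjusted p 0.0624). STAT2 and STAT3 passed in none of the 3 contrasts. STAT2 was −0.60 ± 0.39 (SE) between KYSE180 and KYSE30 (limma's adjusted p 0.264), and STAT3 was 0.26 ± 0.15 (SE, limma's adjusted p 0.187). For STAT4 the lowest line was KYSE450, at 0.17 and 0.16 FPKM, and with no filter it was below KYSE30 by −0.77 (limma's adjusted p 0.0428) and below KYSE180 by −0.86 (limma's adjusted p 0.0307).

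**Figure D4:**
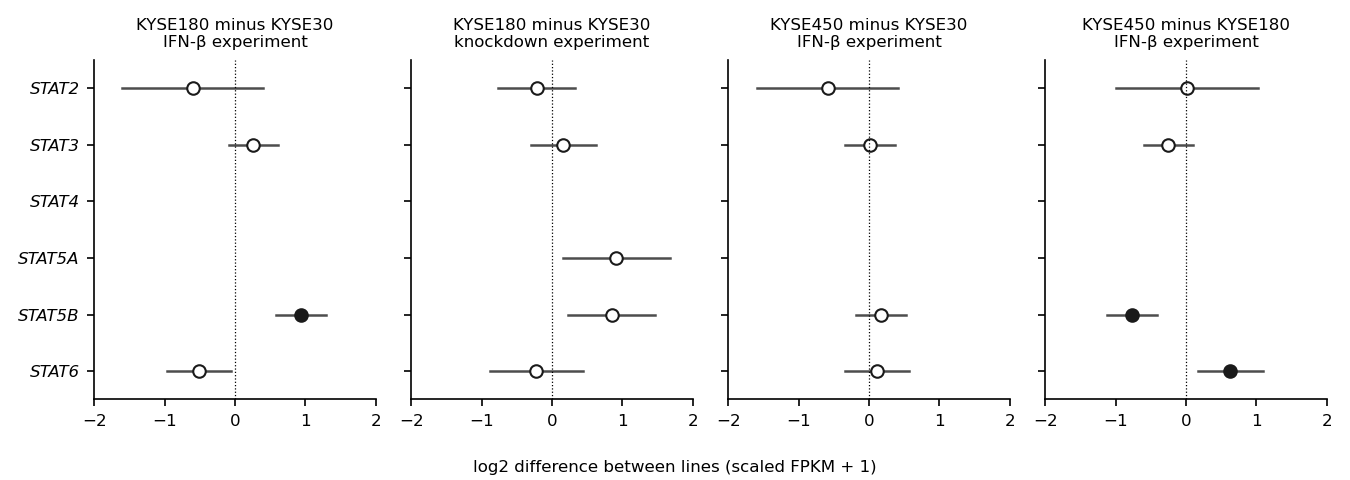
Log2 difference between cell lines (limma on scaled FPKM + 1; points with 95% intervals) for the STAT genes that passed the filter, in each of 4 contrasts. Filled points passed an adjusted p of 0.05, and STAT5B is at 0.93 for KYSE180 against KYSE30 and −0.76 for KYSE450 against KYSE180.

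The second treatment comparison asked how the STAT genes stood when IRF1-AS was targeted. The targeted gene, annotated as C5orf56 (ENSG00000197536), was 6.86 FPKM in the KYSE30 vector control and 3.04 in the library labelled knockdown. In KYSE180 it was 1.08 FPKM in the control and 0.948 in the library labelled knockdown, so the drop was small in that line and the target hardly checks its label. Limma called 0 of 12813 genes, a background of 0%, and thus none of the 5 STAT genes tested. At an unadjusted p under 0.05, 230 genes were higher (1.8%) and 566 lower (4.42%).

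STAT5A had the largest difference of the members and the only unadjusted p under 0.05. It was 0.636 FPKM in the KYSE30 control and 2.74 in the library labelled knockdown, and 3.18 and 4.56 in KYSE180. The knockdown value was higher in both lines, as for 24.7% of tested genes after scaling. The groups overlapped, since the KYSE180 control was above the KYSE30 knockdown. In KYSE30 the log2 ratio of 1.17 passed 2-fold, as 1.33% of tested genes did upward there, and in KYSE180 it was 0.42. The log2 fold change was 0.79 ± 0.29 (SE), interval 0.03 to 1.55, at the 99.2th percentile of all genes, with an unadjusted p of 0.0439 and an adjusted p of 0.784 by limma. STAT5B, its near copy and neighbour, was 12.1 and 10.8 FPKM in KYSE30 and 19.4 and 26.4 in KYSE180, with log2 ratios of opposite sign and a fold change of 0.11 ± 0.24 (SE, limma's adjusted p 0.956).

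STAT2 was nearly the same with and without the knockdown. It was 9.83 FPKM in the KYSE30 control and 8.19 in the library labelled knockdown, and 8.10 and 7.98 in KYSE180. The log2 fold change was −0.15 ± 0.21 (SE), and its interval of −0.70 to 0.40 does not reach a 2-fold change in either direction. STAT3 was 33.9 and 31.6 FPKM in KYSE30 and 42.8 and 35.2 in KYSE180, a fold change of −0.21 ± 0.18 (SE, limma's adjusted p 0.862). Both were lower in each line, as were 27.7% of tested genes after scaling.

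STAT6 was 23.2 FPKM in the KYSE30 control and 31.4 in the library labelled knockdown, but 28.4 and 20.9 in KYSE180. The lines moved in opposite directions, and the fold change was −0.03 ± 0.25 (SE), interval −0.68 to 0.63. STAT4, not tested, was 0.0877 and 0.1 FPKM in KYSE30 and 0.643 and 0.262 in KYSE180.

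The pathway lists had no called member after the knockdown. The 16 tested STAT2-IRF9 targets were all lower in both lines, where 27.7% of all genes were, with a median log2 fold change of −0.98 against −0.01 for all genes. IFIT1, an RNA-binding antiviral protein, was 116 FPKM in the KYSE30 control and 58.5 in the library labelled knockdown, and 14.9 and 4.70 in KYSE180 (−1.25 ± 0.20, SE, limma's adjusted p 0.727). ISG15 was 1070 and 346 FPKM in KYSE30 and 32.6 and 23.7 in KYSE180. IRF9 was 4.33 and 3 FPKM in KYSE30 and 25.5 and 6.83 in KYSE180 (−1.11 ± 0.36, SE, limma's adjusted p 0.784). So the targets and IRF9 had values near −1 while STAT2 itself was at −0.15; the difference between these was not tested.

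Of 17 tested STAT3 targets 13 were lower in both lines, where 27.7% of all genes were, with a median of −0.45. On deposited values 12 were, against 25.4% of all genes. CEBPB, a transcription factor of the acute phase response, was 114 and 61.7 FPKM in KYSE30 and 70.5 and 38.4 in KYSE180 (−0.89 ± 0.18, SE, limma's adjusted p 0.773). Its relative CEBPD was at −0.92, the feedback inhibitor SOCS3 at −0.83 and the kinase PIM1 at −0.77. Of 11 tested STAT5 targets 6 were lower in both lines and none higher on scaled values, where 27.7% and 24.7% of all genes were. Their median was −0.21, while STAT5A was higher in both lines. BCL6 was 7.60 and 4.01 FPKM in KYSE30 and 10.4 and 5.63 in KYSE180 (−0.80 ± 0.21, SE, limma's adjusted p 0.784). Among 12 squamous markers, 5 were lower and 2 higher in both lines, with a median of −0.24, where 27.7% and 24.7% of all genes were. The basal keratins KRT14 and KRT5 stood at −1.11 and 0.51. Their part in these values was not tested.

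Receptors and Janus kinases had a median of −0.14 over 17 tested genes after the knockdown, and inhibitors −0.09 over 19. Nuclear partners had 0.08 over 19, with KPNA6, an importin alpha, lowest at 21.3 and 8.68 FPKM in KYSE30 and 11.5 and 4.11 in KYSE180 (−1.27 ± 0.20, SE, limma's adjusted p 0.724). Of 16 listed STAT6 targets 4 were tested (median −0.38), and of 11 STAT4 targets 5 (median −0.25), with GADD45B at −0.82 in the latter.

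Other genes shared the pattern of single members over the 6 libraries of the interferon experiment, measured as Pearson's r of scaled log2 values among 8785 genes averaging at least 5 FPKM. The libraries share lines and treatment, and the genes were picked by likeness in these same libraries. A shared pattern thus follows from the choice, and these are descriptions. Closest to STAT2 were TRIM14, an adaptor of antiviral signalling (r = 0.986), DDX60L, a helicase-like protein (0.986), and IFIH1, the RNA sensor MDA5 (0.980). TRIM14 was 5.86 FPKM untreated and 35.8 treated in KYSE30, 6.37 and 11.9 in KYSE180, and 3.96 and 19.9 in KYSE450. Its ratio was smallest in KYSE180, like that of STAT2, by which it was picked. IFIH1 was 4.54 and 62.0 FPKM, 4.38 and 14.9, and 1.19 and 53.2 in the same order.

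STAT3 was closest to DDX19A, a helicase of mRNA export (0.977), EXT1, an enzyme of heparan sulfate synthesis (0.975), and DHX58, the RNA sensor LGP2 (0.974). STAT5B followed GMCL1 (0.999), ICK (0.998) and SSBP3 (0.998), each highest in KYSE180. GMCL1 was 21.3 and 18.3 FPKM there and 8.86 to 12.5 in the other 4 libraries. STAT6 followed CCDC76 (0.999), MBNL1, a splicing regulator (0.993), and CBWD6 (0.990), each lowest in treated KYSE180. CBWD6 was 24.2 FPKM in untreated and 1.52 in treated KYSE180 cells.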

How the data were processed

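Total RNA was sequenced from 10 libraries of esophageal squamous cell carcinoma lines. Per the file headers, the authors deposited FPKM, in 1 table per library. TopHat, HTSeq and the hg38 build are named in the submitters' processing notes, without versions or roles, and the sources used here give no annotation, strand setting or read depth. Copies on alternate haplotypes (946) were added to their gene, and long non-coding transcripts were summed into 16044 genes.

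Values were scaled by median-of-ratios, taken as log2(FPKM + 1) and fitted with limma 3.58.1 (trend and robust, statmod 1.5.0, R 4.3.3). Each experiment was fitted apart, with cell line and treatment as terms. Genes at 1 FPKM in 3 (interferon) or 2 (knockdown) libraries were tested, 12429 and 12813, and p-values were Benjamini-Hochberg adjusted over them at 0.05. The fit was tested on simulated data. The lines pair the libraries, since same-numbered libraries come from 1 line, and deviations from the group means correlated at 0.841 to 0.91 across genes within a line of the interferon experiment and 0.842 in the knockdown experiment. No pair of libraries had more than 2.034% identical values.

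Named are all members, list genes with the smallest p and called ones, the 3 genes most alike, and neighbours. A few list genes shown at other ranks (IFNAR1, IFNAR2, JAK1, IL12RB1, and ISG15 after the knockdown) were chosen after their values were seen. Members and lists were chosen with earlier results of these data known. Not every gene this rule selects is reported here. Positions are from GENCODE release 29 and promoter sequences from RefSeq, in which all 6 members matched. Alternatives were other scalings, pseudocounts and filters, limma without trend and robust, no replicate block, named genes alone, and each line left out.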

Additional observations from a re-analysis of the deposited data

Results flagged for a closer look

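STAT6 moved in opposite directions in different lines in both experiments. After IFN-β its log2 ratio of scaled FPKM + 1 was −0.57 in KYSE180 and −0.14 in KYSE450, but 0.09 in KYSE30. In the libraries labelled knockdown it was 0.36 in KYSE30 and −0.41 in KYSE180. KYSE180 had the lower ratio both times.

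STAT5B also had ratios of opposite sign after the knockdown, −0.21 in KYSE30 and 0.43 in KYSE180. Each of these lines gave 1 library per arm, so the differences between lines were not tested. The gray bars of the ratio plot, which span the 5th to the 95th percentile of all named genes in a line, hold all of these values.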

How the results depend on the processing

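Over 229 recomputed tests of single STAT genes, 214 kept their direction and side of the threshold, 3 lost a call, 6 gained one and 6 changed sign. After IFN-β the number of STAT genes called was 0 after scaling and 1 on deposited values, and ranged from 0 to 1 when a line was left out. The gene was STAT2, at 1.92 on deposited values and 1.41 to 2.24 with a line left out. Without the replicate block, which pairs libraries by line, STAT2 was 1.77 with limma's adjusted p of 0.799, and 13 genes in place of 51 were called higher. The block changed no call of a STAT gene. STAT5B turned to 0.005 on deposited values.

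Between KYSE180 and KYSE30, 2 STAT genes in place of 1 were called with no filter and 2 without KYSE450. Between KYSE450 and KYSE30, 1 in place of 0 was called with no filter and 1 without KYSE180, which was STAT2 in the latter (−0.58, limma's adjusted p 0.0293). STAT3 in that contrast, near 0 throughout, turned to −0.004 with upper-quartile scaling and with an average of 5 FPKM. Between KYSE450 and KYSE180, 1 in place of 2 was called on deposited values and with upper-quartile scaling, 3 with no filter and 3 without KYSE30. There STAT2 turned to −0.142, −0.077 and −0.033 on deposited values, with upper-quartile scaling and with the 5 FPKM average. In the knockdown experiment 1 in place of 0 was called between lines under these 3 settings, STAT5B, at adjusted p of 0.0456, 0.05 and 0.0444. The cause of these changes was not tested.

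Genes called higher after IFN-β were 51, but 193 on deposited values, 15 with no filter and 32 without KYSE450. Those called lower were 0, but 44 on deposited values and 1 to 11 under 6 other settings. No alternative called a STAT gene after the knockdown, and leaving out a line there gave 9 values with no test, of which 2 had another sign than the value over both lines: STAT5B without KYSE180 (−0.20) and STAT6 without it (0.37). Depth is unknown, so counting error could not be given.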

Other observations

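Of the genes beside the STAT genes on the chromosome, some shared part of a STAT gene's pattern and others did not. GHDC, which lies 4635 bases from STAT5B, was 0.21 and 0.48 FPKM in untreated and treated KYSE30 cells, 11.7 and 8.54 in KYSE180, and 4.43 and 4.67 in KYSE450. In the knockdown experiment GHDC was 0.782 and 0.458 FPKM in KYSE30 and 8.99 and 12.0 in KYSE180. KYSE180 was thus the line with the most GHDC, STAT5B and STAT5A in both experiments, by value. CAVIN1, a caveolar coat gene 13883 bases from STAT3, was highest in KYSE450 in the interferon experiment, at 85.3 and 78.8 FPKM, where STAT3 was 15.6 and 29.3. IL23A and APOF, which flank STAT2, were at most 0.67 and 0.21 FPKM in any library, while STAT2 reached 96.3. NAB2, which overlaps STAT6 on the other strand, was 3.66 and 3.94 FPKM in KYSE30 and 16.6 and 22.1 in KYSE180. In KYSE450 NAB2 was 15.7 and 18.3, an order unlike that of STAT6. LRP1, which overlaps STAT6 by 3647 bases, was 1.02 and 0.93 FPKM in KYSE30, 2.38 and 0.94 in KYSE180, and 0.5 and 1.18 in KYSE450. In the knockdown experiment LRP1 was 6.20 and 6.22 FPKM in KYSE30 and 8.43 and 3.805 in KYSE180. As deposited, LRP1 and STAT6 were both lower in KYSE180 in both experiments and higher in treated KYSE450. After scaling, STAT6 was lower in treated KYSE450, at a ratio of 0.901, and scaled values of LRP1 are not given here. In KYSE30 LRP1 changed little, while the scaled STAT6 ratio was 1.07 after IFN-β and 1.29 in the knockdown experiment. The part of shared reads in these values was not tested.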
